A study of Mus musculus with 3 samples.

Results

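To find where Isl1 was bound at genes of the fibroblast growth factor (FGF) pathway, the peaks of an Isl1 chromatin immunoprecipitation followed by sequencing (ChIP-Seq) experiment that had been assigned to 40 FGF pathway genes were collected by gene name. In this assay an antibody enriches the DNA fragments that a protein is crosslinked to, and a peak is a stretch where reads are enriched over input chromatin. Of the 40 genes, 24 had an assigned peak, and these 24 genes held 58 of the 14082 distinct peaks in the list. The cells were cardiac progenitor cells (CPCs) differentiated from mouse E14 Tg(Nkx2-5-EmGFP) embryonic stem cells, a line that carries a green fluorescent reporter driven by the cardiac gene Nkx2-5, and all 3 samples came from this line at day 5. The 2 Isl1 ChIP samples used an antibody to Isl1, and the input sample was chromatin kept aside before the pulldown. The plating medium of all 3 samples held 10 ng/ml bFGF (the product of Fgf2) and 25 ng/ml FGF10 beside 5 ng/ml VEGF, so no sample without added FGF was compared. The deposited list keeps areas common to both ChIP samples and gives positions, a distance to the nearest transcription start site (TSS) and a gene name, with no score or read number. Read depth and the spread between replicates are therefore unknown here, a peak is present or absent with no strength, and no test between groups could be made. Expression was not part of these data, so the cells were not checked against marker genes.

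FGFs are secreted proteins that bind receptor tyrosine kinases on the cell surface together with heparan sulfate. The activated receptor phosphorylates the docking proteins Frs2 and Frs3, which recruit the adaptors that turn on Ras and the MAP kinases, and ETS transcription factors such as Etv4 and Etv5 are induced at the end of this chain. Sprouty and Spred proteins and the phosphatase Dusp6 damp the signal as negative feedback. Isl1 is a LIM-homeodomain factor of the second heart field, the progenitor population that builds the outflow tract and right ventricle, where Fgf8 and Fgf10 are well-known signals.

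An Isl1 peak was assigned to 24 of the 40 pathway genes (60%, 95% Wilson interval 44.6 to 73.7%), beside 37.5% of the 21883 protein-coding genes. The receptors stood at one end, with a peak at 5 of 5 genes, and the ligands at the other, with a peak at 8 of 20 genes (40%, interval 21.9 to 61.3%). Feedback genes lay between them at 5 of 7 (71.4%, interval 35.9 to 91.8%), ETS factors had 2 of 3, and the docking and FLRT genes 4 of 5. The interval was 56.6 to 100% for the receptors and 37.6 to 96.4% for the docking and FLRT genes. It was 20.8 to 93.9% for the ETS factors. The intervals of receptors and ligands overlapped. The ligand group includes 3 relatives that stay inside the cell and 3 endocrine ligands. Of the other 14 ligands, 6 had a peak (42.9%, interval 21.4 to 67.4%). Intervals here treat genes as if drawn at random and cover counting error alone. The members were chosen with earlier results of these data known, so the intervals do not test a group against the background.

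A stricter view took only peaks whose midpoint lay within 1 kb of the assigned TSS. This left 15 of 40 members (37.5%, interval 24.2 to 53.0%) beside 23.2% of protein-coding genes. They were 5 ligands (Fgf2, Fgf4, Fgf8, Fgf12 and Fgf18), the 5 receptors, the feedback genes Spred1 and Spred2, the ETS factors Etv4 and Etv5, and the docking gene Frs2. Within 10 kb, Dusp6 and Flrt2 joined them, for 17 of 40 members (42.5%) beside 27.2% of protein-coding genes. For ligands the share within 1 kb was 5 of 20 (25%, interval 11.2 to 46.9%), close to the background. Without the intracellular relatives and the endocrine ligands it was 4 of 14 (28.6%, interval 11.7 to 54.6%).

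**Figure D1:**
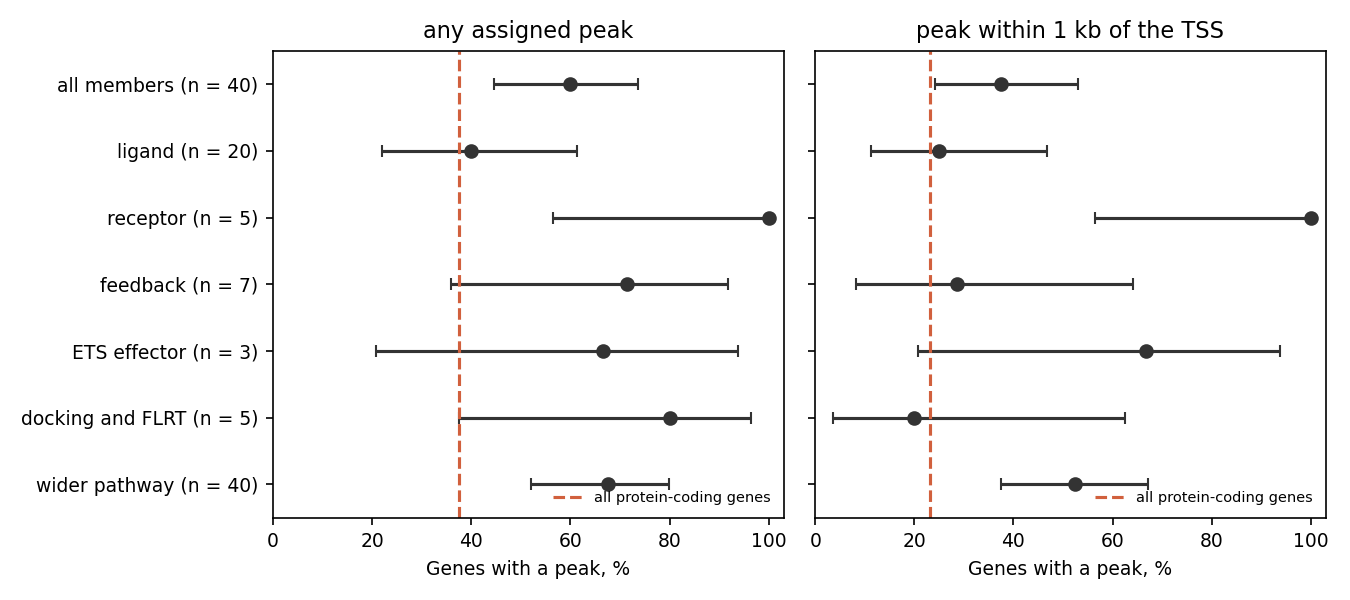
Percent of genes with an assigned Isl1 peak at any distance (left) and within 1 kb of the TSS (right), for all 40 members, the 5 role groups and the 40 genes of the wider pathway. Points are shares, bars are 95% Wilson intervals and the dashed line is the share of all protein-coding genes (37.5% left, 23.2% right). The receptors are at 100% in both panels, and the ligands lie near the dashed line in both.

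The sequence under start-site peaks is shown for 4 members, from the receptors, feedback genes, ETS factors and docking genes, because these peaks carried the contrast with the distant ones described further on. Each stretch was read from mm9, lies inside the peak and upstream of every annotated start of that gene, and is written 5′ to 3′ in the direction of the gene with CG dinucleotides in capitals. Fgfr3 is at chr5:34064173-34064372 (plus strand), Spred1 at chr2:116946608-116946807 (plus), Etv5 at chr16:22439793-22439980 (minus) and Frs2 at chr10:116585532-116585731 (minus).
Fgfr3: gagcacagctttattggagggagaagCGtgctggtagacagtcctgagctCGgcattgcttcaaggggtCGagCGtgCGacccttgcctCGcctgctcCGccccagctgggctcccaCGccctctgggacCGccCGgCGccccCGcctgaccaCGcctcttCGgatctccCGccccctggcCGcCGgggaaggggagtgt
Spred1: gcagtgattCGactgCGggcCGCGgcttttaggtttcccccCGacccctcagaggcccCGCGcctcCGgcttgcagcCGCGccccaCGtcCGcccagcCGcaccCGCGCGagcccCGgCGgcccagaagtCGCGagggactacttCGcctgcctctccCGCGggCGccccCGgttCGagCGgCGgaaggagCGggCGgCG
Etv5: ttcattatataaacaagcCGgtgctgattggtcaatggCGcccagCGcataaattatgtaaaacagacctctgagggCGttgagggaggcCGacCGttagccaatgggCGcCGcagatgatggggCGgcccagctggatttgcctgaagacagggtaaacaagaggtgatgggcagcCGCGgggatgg
Frs2: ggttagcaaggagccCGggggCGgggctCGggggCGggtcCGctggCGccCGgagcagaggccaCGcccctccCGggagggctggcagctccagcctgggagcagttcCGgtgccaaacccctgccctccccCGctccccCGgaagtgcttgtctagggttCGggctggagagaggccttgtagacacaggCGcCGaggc
These stretches of 188 to 200 bases held from 11 CG dinucleotides in Etv5 to 31 in Spred1. The Fgfr3 stretch ends 584 bases before its assigned TSS, and it stands in for Fgfr4, whose peak lies nearer to a TSS but holds no printable stretch upstream of its annotated starts.

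For that contrast, 2 distant peaks are shown by their centres, which are not stretches upstream of a start. Fgf10 at chr13:119803892-119803991 is the centre of the only peak of that gene, and Flrt3 at chr2:140366108-140366207 is the centre of the member peak that shared sequence with most other peaks. Both are on the plus strand, again with CG dinucleotides in capitals.
Fgf10: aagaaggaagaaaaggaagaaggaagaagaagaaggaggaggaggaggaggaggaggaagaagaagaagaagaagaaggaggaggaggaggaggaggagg
Flrt3: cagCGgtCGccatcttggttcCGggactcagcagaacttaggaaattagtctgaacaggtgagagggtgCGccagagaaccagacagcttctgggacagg
The printed 100 bases of Fgf10 are a short purine repeat with 0 CG dinucleotides, and those of Flrt3 hold 4. In GC content the printed Flrt3 stretch (56%) was close to that of Etv5 (55.9%). Over the central 200 bp, the length used below, the Fgf10 peak held 6 and this Flrt3 peak 10.

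Among the ligands, Fgf8, a signal of the early heart and outflow tract, carried 2 peaks. The first, at chr19:45816688-45817995 (1307 bp wide), was centred 33 bp downstream of the TSS, in an untranslated part of an exon. The second, at chr19:45811192-45811982 (790 bp wide), lay 5787 bp downstream and was centred on a coding exon. Fgf8 was the only ligand with every peak within 10 kb and more than 1 peak. Fgf18, of the same subfamily, had a peak at chr11:33046696-33048201 (1505 bp wide) centred 48 bp upstream of its TSS, whereas Fgf17, the remaining gene of that subfamily, had none. Fgf2 had a peak at chr3:37247185-37248156 (971 bp wide, 95 bp downstream of the TSS). The Fgf4 peak at chr7:152046977-152048308 (1331 bp wide) was centred 351 bp downstream, in a coding exon.

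Fgf10, the other second heart field ligand and a supplement of the medium, had no peak near its start. Its only assigned peak, at chr13:119803574-119804309 (735 bp wide), lay 300435 bp downstream of the TSS in intergenic sequence. The words of 31 bases in its centre occurred at a median of 18 places in the genome, and 237 other peaks of the list shared such a word. With words of 75 bases the same centre was single-copy. A peak assigned to Gm10732, also multi-copy (median of 39 places), lay nearer, 56750 bp from an annotated start of Fgf10. Fgf9 had 3 assigned peaks at 179954, 364338 and 514916 bp downstream. All lay in intergenic sequence that occurred many times in the genome (medians of 2195, 18598 and 579.5 places). A single-copy peak assigned to Micu2 lay nearer, 71381 bp from an annotated start of Fgf9.

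Fgf12 and Fgf14 encode relatives of the FGFs that stay inside the cell and regulate sodium channels. They are long genes, and they had 7 and 5 peaks. Of the Fgf12 peaks, 2 lay at start sites. The peak at chr16:28445864-28447200 (1336 bp wide) was 371 bp upstream of its assigned TSS, and the peak at chr16:28564297-28565527 (1230 bp wide) was 125 bp downstream of another start, which the annotation used here does not hold. The other 5 Fgf12 peaks were 54717 to 269401 bp away and multi-copy. The 5 Fgf14 peaks were 22240 to 223123 bp from the assigned starts and had their midpoints in introns of Fgf14. A single Fgf14 peak was single-copy, at chr14:124727441-124727762 (321 bp wide, 135833 bp upstream). No endocrine ligand (Fgf15, Fgf21 and Fgf23) had an assigned peak.

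Each of the 5 receptors had a single-copy peak within 1 kb of its TSS. The Fgfr1 peak at chr8:26628938-26630326 (1388 bp wide) was centred 401 bp downstream. Fgfr1, the main FGF receptor of early mesoderm, also had 2 upstream peaks, at chr8:26549193-26549765 (572 bp wide, 79752 bp away) and chr8:26582218-26582801 (583 bp wide, 46722 bp away), both in intergenic multi-copy sequence. Fgfr2, whose splice forms receive FGF10 and FGF8 signals, had a peak at chr7:137409252-137410115 (863 bp wide), 639 bp downstream of the assigned TSS and 21 bp from the nearest annotated start of that gene. The Fgfr3 peak at chr5:34064105-34065477 (1372 bp wide) was centred 164 bp upstream. Fgfr4 had the narrowest of the receptor start-site peaks, at chr13:55253983-55254597 (614 bp wide, 111 bp downstream). The peak of Fgfrl1, a receptor without a kinase domain, was the widest of them, at chr5:109122661-109124296 (1635 bp wide, 230 bp downstream). Receptor peaks were thus at start sites in 5 of 7 cases (71.4%, interval 35.9 to 91.8%), beside 38.5% of all peaks.

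Feedback genes were less uniform. Spred1 and Spred2, which block Ras activation at the membrane, had start-site peaks at chr2:116946226-116947693 (1467 bp wide, 152 bp downstream) and chr11:19824361-19825948 (1587 bp wide, 709 bp downstream). The peak of Dusp6, a phosphatase that acts on ERK, lay just outside 1 kb, at chr10:98723882-98724838 (956 bp wide, 1505 bp upstream of the TSS). Spry2 and Spry4, which encode Sprouty inhibitors, had no peak within 10 kb. The Spry2 peaks were 36764 bp upstream and 42281 bp downstream of the TSS and both multi-copy (medians of 13 and 88.5 places). Spry4 had a single-copy peak at chr18:38720175-38720698 (523 bp wide, 40486 bp downstream) and a multi-copy peak 57998 bp upstream in an intron of Arhgap26. Spred2 also had multi-copy peaks 142474 and 221558 bp upstream. Spry1 and Spred3 had no assigned peak.

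The ETS factors Etv4 and Etv5, widely used as readouts of FGF signalling, had single-copy peaks only. The Etv4 peak at chr11:101645568-101646742 (1174 bp wide) was centred 469 bp downstream of the TSS. Etv5 had a start-site peak at chr16:22439039-22439980 (941 bp wide, 134 bp downstream) and 2 narrow intronic peaks of 339 bp each, at chr16:22432079-22432418 and chr16:22409426-22409765, 7395 and 30048 bp downstream. Etv1 had no assigned peak.

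Of the docking proteins that bind the activated receptor, Frs2 had a peak at chr10:116584891-116586031 (1140 bp wide, 69 bp downstream of the TSS) and Frs3 had no assigned peak. FLRT proteins are membrane proteins with leucine-rich repeats that interact with FGF receptors, and their genes had peaks mainly far away. The Flrt1 peak at chr19:7225019-7225793 (774 bp wide) lay 45187 bp upstream in an intron of Macrod1. The nearest Flrt2 peak, at chr12:96933298-96934176 (878 bp wide), was 3301 bp downstream of the assigned TSS and 171 bp from the nearest annotated Flrt2 start. The other 8 Flrt2 peaks, 74519 to 876001 bp away, were multi-copy. All 6 Flrt3 peaks had their midpoints in introns of Macrod2, a long gene whose intron holds Flrt3. A single Flrt3 peak was single-copy, at chr2:141197511-141198389 (878 bp wide, 700738 bp upstream).

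**Figure D2:**
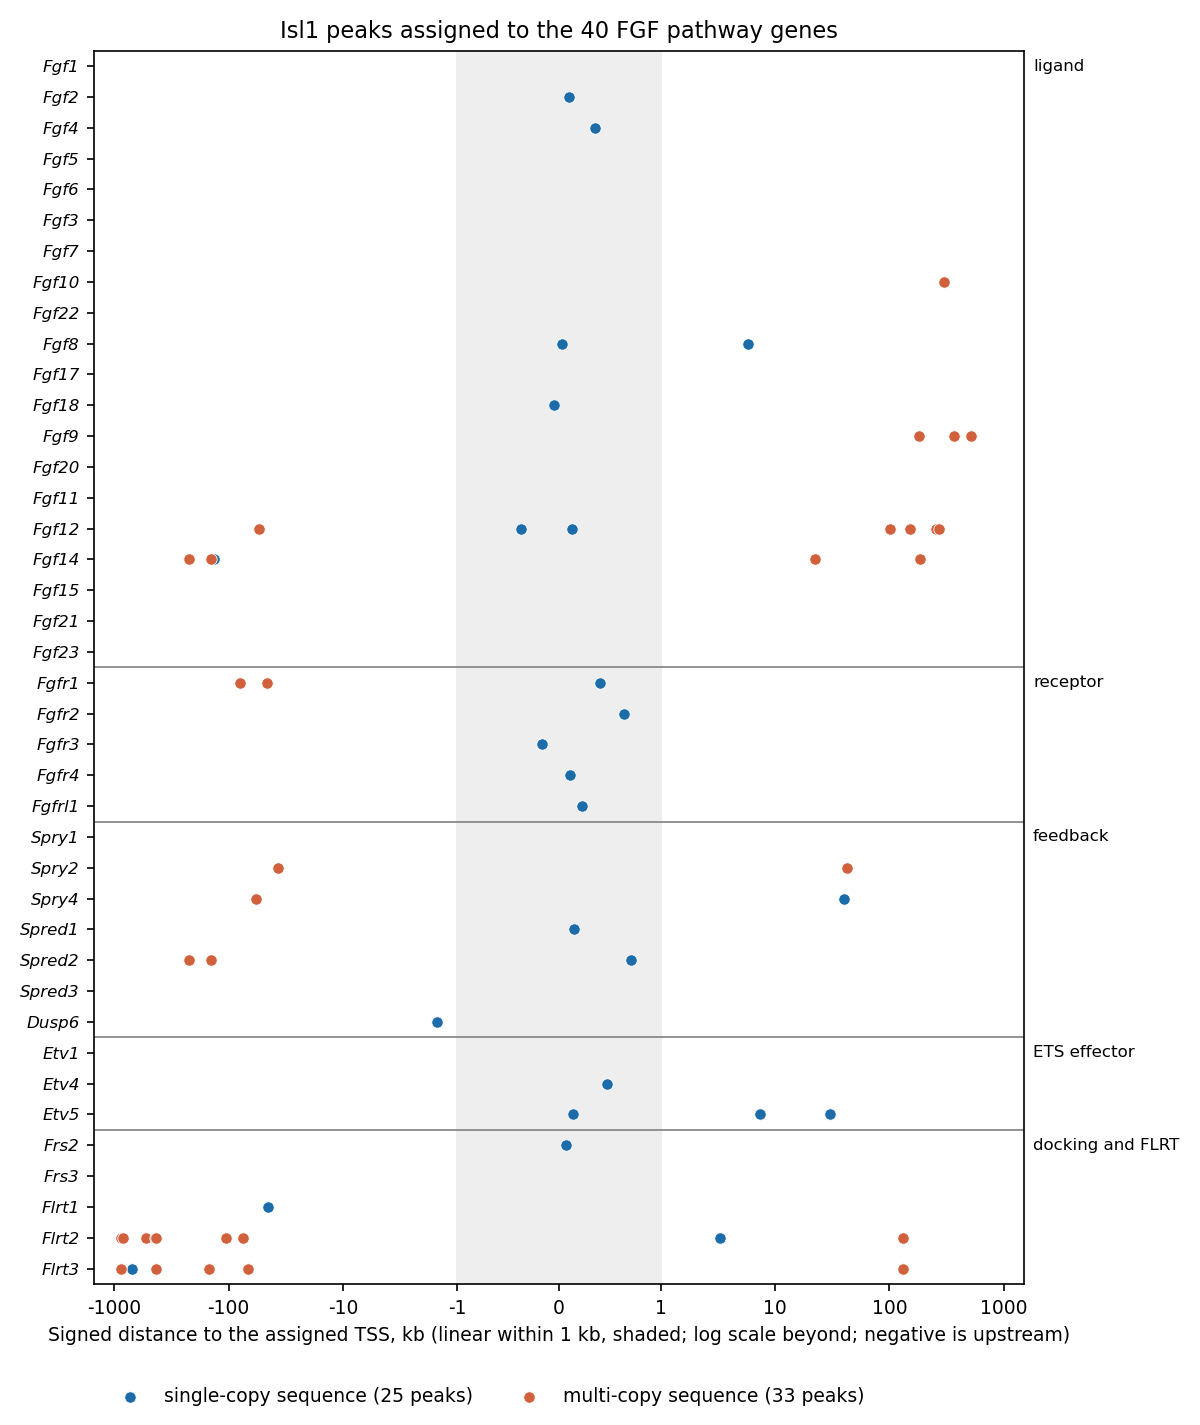
Signed distance from the assigned TSS to the midpoint of each of the 58 Isl1 peaks (x axis in kb, linear within 1 kb, log scale beyond, negative upstream), with a row for each of the 40 genes grouped by role. Blue points are the 25 peaks at single-copy sequence and orange points the 33 at multi-copy sequence. Every receptor has a blue point in the shaded band within 1 kb, no orange point lies within 10 kb, and rows without a point are the 16 genes with no assigned peak.

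No peak was assigned to 16 members, which were 12 ligands (Fgf1, Fgf3, Fgf5, Fgf6, Fgf7, Fgf11, Fgf15, Fgf17, Fgf20, Fgf21, Fgf22 and Fgf23), Spry1, Spred3, Etv1 and Frs3. A missing name does not always mean a distant peak, because each peak carries the name of a single gene. A peak assigned to Tomm6 lay 61 bp from the nearest annotated start of Frs3. A peak assigned to Micu3 lay 283 bp from an annotated start of Fgf20, a ligand related to Fgf9. A peak assigned to Ggn lay 2951 bp from Spred3. For the other 13 members the nearest peak of any name was 11754 bp (Fgf22) to 250228 bp (Fgf6) away. The nearest peak to Fgf3 (23143 bp) and to Fgf15 (34794 bp) was the Fgf4 start-site peak, and these 3 ligand genes are neighbours on chromosome 7. Counting any peak within 1 kb of an annotated start, whatever its name, gave 17 members in place of 15, adding Frs3, Fgf20 and Flrt2 (171 bp) and losing Fgf12, whose nearest annotated start was 1220 bp from a peak.

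More than 1 peak was assigned to 11 members (27.5%, interval 16.1 to 42.8%), beside 10.6% of protein-coding genes. Flrt2 with 9 peaks, Fgf12 with 7, Flrt3 with 6 and Fgf14 with 5 together held 27 of the 58 peaks. Peaks over 100 kb from the TSS were assigned to 7 members (17.5%), beside 5.68% of protein-coding genes. These were Fgf9, Fgf10, Fgf12, Fgf14, Spred2, Flrt2 and Flrt3. Each peak carries the name of the nearest TSS at whatever distance. The genomic territory of a gene, taken as the stretch from midway to the preceding start to midway to the next start of a protein-coding gene, had a median of 80.3 kb for members and 47.8 kb for all protein-coding genes. It was 770 kb for Fgf12, 1059 kb for Flrt2 and 1253 kb for Flrt3, and none could be given for Fgf14, the last such gene on its chromosome. The part of territory size in these counts was not tested. Among the protein-coding genes on either side of each member, 32 of 73 had a peak (43.8%) and 21 of 73 had a peak within 1 kb (28.8%).

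By distance, 16 of the 58 peaks were within 1 kb (27.6%, interval 17.8 to 40.2%, beside 38.5% of all peaks), 4 at 1 to 10 kb, 12 at 10 to 100 kb and 26 over 100 kb (44.8%, interval 32.7 to 57.5%, beside 23.0% of all peaks). Without Fgf12, Fgf14, Flrt2 and Flrt3, 14 of 31 peaks lay within 1 kb (45.2%) and 6 over 100 kb (19.4%). Start-site peaks were wide, with a median of 1319 bp for members and 1050 bp for all peaks within 1 kb. Over all distances the medians were 894 bp for member peaks and 947 bp for all peaks. The centres (200 bp) of the member peaks within 1 kb had a GC content of 75.7% ± 4.59 (SD, n = 16) and 17 to 34 CG dinucleotides each. Those beyond 10 kb had 59.5% ± 7.10 (SD, n = 38). All peaks of the list gave 73.7% and 61.6% for these distance classes.

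Copy number divided the peaks at nearly the same place as distance. A peak was called multi-copy when the 31-base words of its central 200 bp occurred at a median of at least 2 places in mm9 on either strand. All 20 member peaks within 10 kb were single-copy, beside 10.3% multi-copy among all peaks within 10 kb. The interval of the members' multi-copy share there (0 to 16.1%) took in that value. Beyond 10 kb, 33 of the 38 were multi-copy (86.8%, interval 72.7 to 94.2%), beside 81.2% of all peaks beyond 10 kb. The 5 single-copy peaks beyond 10 kb were those of Fgf14, Spry4, Etv5, Flrt1 and Flrt3 given above. A single-copy peak was assigned to 21 of 40 members (52.5%, interval 37.5 to 67.1%), beside 27.6% of protein-coding genes, and a multi-copy peak to 10 (25%, interval 14.2 to 40.2%), beside 14.7%. For Fgf9, Fgf10 and Spry2 every assigned peak was multi-copy. Reads from such sequence can fit several places, which leaves the position of these peaks, and with it the gene name, uncertain. With 75-base words 11 of the 33 multi-copy peaks became single-copy, including the Fgf10 peak and both Spry2 peaks, while the 3 Fgf9 peaks stayed multi-copy.

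**Figure D3:**
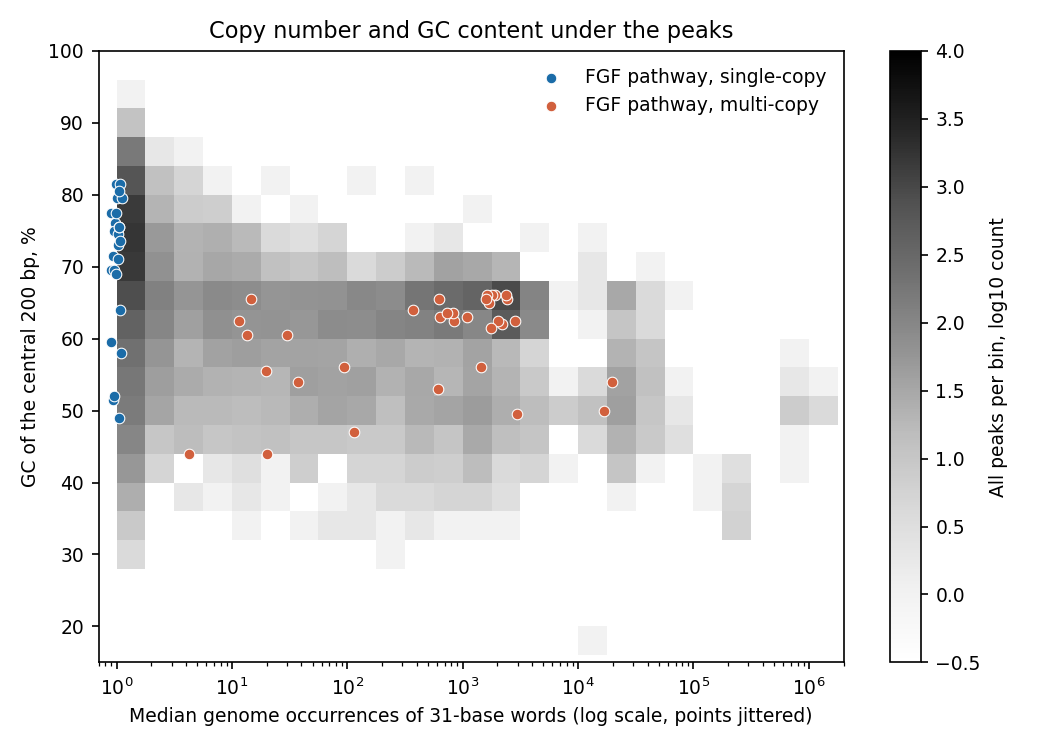
Median genome occurrences of the 31-base words in the central 200 bp (x axis, log scale, points jittered) against GC content of the same bases (y axis, %), with the 58 member peaks as points over grey bins of all 14082 peaks shaded by log10 count. The start-site peaks of the members sit at a single copy and high GC, and a dense group of multi-copy member peaks sits between 61.5 and 66% GC.

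Most multi-copy member peaks were repeats of 2 visible kinds. In 9 of the 33 (27.3%, beside 21.1% of all multi-copy peaks), the central bases matched themselves at a shift of at most 6 bases at 80% or more of positions, as short tandem repeats do. These included the Fgf10 peak (80.7% at a shift of 3), the Fgf9 peak 364338 bp away (98.5% at a shift of 6) and the more distant upstream Fgfr1 peak (86.3% at a shift of 3). A further 18 fell into 3 families, in which each peak shared at least 20 of its 31-base words with at least 1 other peak of the family. The first joined 7 peaks of Fgf12, Fgf14, Flrt2 and Flrt3, the second 6 peaks of Fgf9, Fgf12, Fgf14, Flrt2 and Flrt3, and the third 5 peaks of Fgf9, Fgf12, Flrt2 and Flrt3. The remaining 6 were in neither class. Counted over the whole list, 1488, 877 and 524 peaks shared as many words with a peak of these families. A 60-base stretch of the first family and of the second is shown because the same bases lie under peaks credited to different FGF genes. The first is at chr14:125054021-125054080 in an Fgf14 peak and the second at chr16:28500871-28500930 in an Fgf12 peak, both on the plus strand.
Family 1: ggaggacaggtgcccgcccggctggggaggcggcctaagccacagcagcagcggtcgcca
Family 2: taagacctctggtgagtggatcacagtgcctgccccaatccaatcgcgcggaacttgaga
The first stretch was found in the centres of 3 member peaks (of Fgf14, Flrt2 and Flrt3) and of 222 peaks in the list, and at 1169 places in mm9. The second was found in 4 member centres (of Fgf9, Fgf12 and Flrt3), in 121 centres of the list and at 1109 places. All 33 multi-copy member peaks shared a 31-base word with another peak of the list, and 7 of the 25 single-copy ones did.

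Strings of the LIM-homeodomain type were searched for on both strands of the central 200 bp. CTAATTG or CTAATGG occurred in 0 of the 58 member centres, which allows a share of up to 5.17% at 3 counts (the Wilson upper limit is 6.21%), and in 0.412% of all peak centres. The homeodomain core TAAT, which is part of both, was in 12 member centres (20.7%, interval 12.3 to 32.8%) and 19.4% of all centres. It was in 1 of the 25 single-copy centres (4%) and 11 of the 33 multi-copy centres (33.3%), beside 9.67% and 30.6% of all single-copy and multi-copy centres. In 200 bp windows placed 2 kb before and after the centre, 74.1% and 72.4% of the member peaks held TAAT, beside 72.0% and 72.3% of all peaks. GC content moved with these shares, and its part in them was not tested. In the same flanking windows, CTAATTG or CTAATGG was in 3 and 2 of the 58 member peaks, beside 2.81% and 2.76% of all peaks. The E-box CACGTG was in 1 member centre, that of the Etv5 peak 30048 bp downstream, and in 2.55% of all centres. These are matches of letters in a window and not binding sites.

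Start-site peaks went with CpG-rich promoters, as in the rest of the list. The observed to expected ratio of CG dinucleotides in the 500 bp around the annotated gene start had a median of 0.786 for the 15 members with a peak within 1 kb and 0.529 for the 25 without. Over the 22219 protein-coding genes of the annotation used here the medians were 0.849 and 0.445. Of the 24 members with a ratio of at least 0.6, 14 had a peak within 1 kb (58.3%), beside 36.7% of protein-coding genes in that range. None of the 12 members between 0.3 and 0.6 at the annotated gene start had such a peak, beside 11.4% of genes. At a ratio under 0.3, Fgfr1 (0.152) had such a peak. The annotated gene start is not always the start that a peak was assigned to, and for 4 of the 16 start-site peaks they were over 1 kb apart. They lay 5106 bp apart for Fgfr1, 36135 bp for Fgf2, 2904710 bp for Fgfr2 and 119725 bp for the second Fgf12 peak. Around the assigned start the ratio was 0.845 for Fgfr1, 0.808 for Fgf2 and 0.881 for that Fgf12 peak. For Fgfr2 it was 0.368, the lowest of the 16 (median 0.836). By its assigned start Fgfr2 would thus fall between 0.3 and 0.6 with a start-site peak. Spry4 (0.933), Spry1 (0.906) and Spry2 (0.897) had ratios above the median of the members with a start-site peak, and none of them had a peak within 10 kb.

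**Figure D4:**
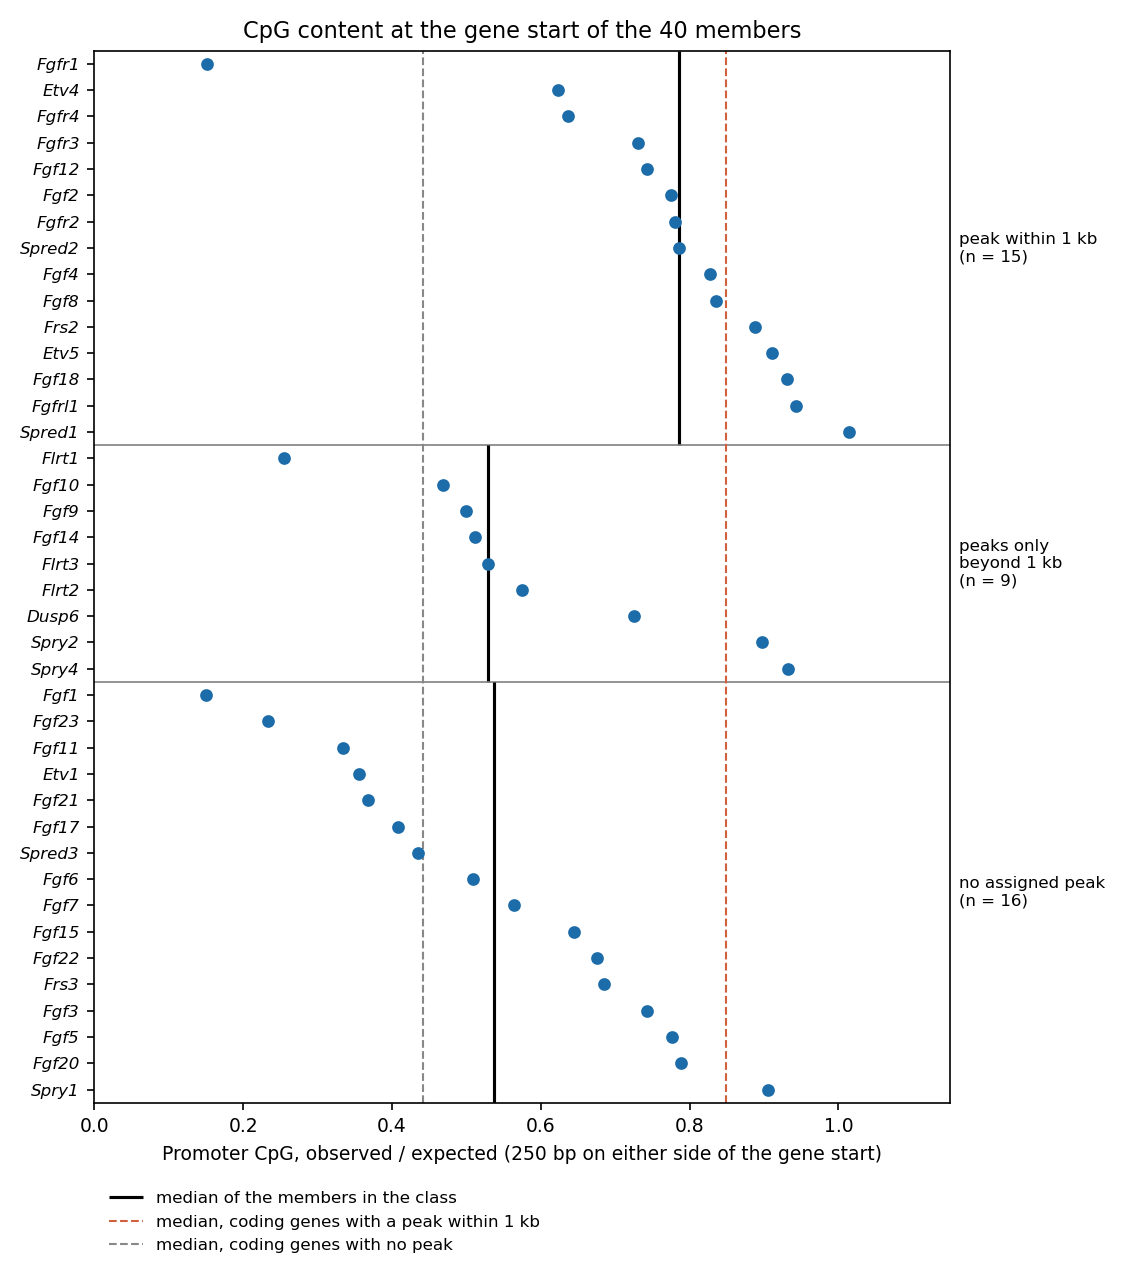
Observed to expected ratio of CG dinucleotides in the 250 bp on either side of the gene start (x axis) for each of the 40 members, divided into genes with a peak within 1 kb, with peaks only beyond 1 kb and with no assigned peak. Solid lines are class medians and dashed lines the medians of all protein-coding genes with a peak within 1 kb (0.849) and with no peak (0.441). Except for Fgfr1, the members with a peak within 1 kb lie at 0.623 (Etv4) or above. Spry1, Spry2 and Spry4 have high ratios without such a peak. Around the start that its peak was assigned to, Fgfr2 has a ratio of 0.368, which is not plotted.

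The rest of the pathway was read from a list of 40 further genes for adaptors, kinases, heparan sulfate enzymes, proteoglycans and other regulators. A peak was assigned to 27 of them (67.5%, interval 52.0 to 79.9%), beside 37.5% of protein-coding genes. Of the 40, 21 had a peak within 1 kb (52.5%, interval 37.5 to 67.1%), beside 23.2% of protein-coding genes. These included the adaptors and regulators of Ras (Grb2, Gab1, Sos1, Sos2, Ptpn11, Cbl and Plcg1), the Ras gene Hras, and the kinases Map2k1 and Mapk3. Of the 13 genes on the list that make, edit or carry heparan sulfate, 7 had a peak within 1 kb (53.8%, interval 29.1 to 76.8%, beside 23.2% of protein-coding genes). They were Hs2st1, Hs6st1, Sulf2, Gpc1, Gpc4, Sdc1 and Sdc3, while Ndst1, Ext1, Sulf1, Gpc3, Sdc2 and Sdc4 had none. Fgfbp3, which encodes an FGF carrier, and Il17rd, which encodes a membrane inhibitor, also had such a peak. The start-site peak of Fgfbp3 was centred 777 bp downstream of its TSS. The FGF family genes Fgf13 (2 peaks) and Fgf16 (1 peak) had multi-copy peaks only, the closest at 119308 and -90270 bp from the TSS (negative is upstream).

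Ligands and receptors of other pathways gave the same order only in part. Among Wnt ligands 13 of 19 had a peak within 1 kb (68.4%, interval 46.0 to 84.6%), beside 5 of 10 Frizzled receptors (50%). Among Bmp ligands it was 4 of 10 (40%), beside 7 of 9 BMP and activin receptors (77.8%, interval 45.3 to 93.7%). The FGF ligands, at 5 of 20 (25%), had the lowest share of these groups, although their interval overlapped that of each group, including the Wnt ligands at its upper end (46.9%). Over all protein-coding genes the share within 1 kb was 23.2%, so the FGF ligands lay close to the background and not below it.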

How the data were processed

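Isl1 ChIP-Seq was done on ESC-derived CPCs at day 5 (2 ChIP replicates and 1 input), grouped by the sample titles. According to the methods of the study and the submitters' processing notes, the authors aligned reads to mm9 with bowtie2, marked duplicates with Picard 1.136, called peaks with MACS14 without a fragment model, removed blacklisted regions, kept areas common to both replicates with bedtools 2.15 and assigned each peak to the closest TSS with HOMER. The deposited list holds coordinates and signed distances in bp, which are neither counts nor signal, so depth is unknown and intervals cover counting error only. How reads that fit several places were handled beyond the aligner's defaults is not given in the sources used here. Whether its start positions are 0-based or 1-based is not stated, which leaves 1 bp of doubt.

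Identical lines were counted once (14165 lines, 14082 peaks). The genome and annotation were NCBI m37, which is mm9, with GENCODE vM1 genes. For 24 of the 58 member peaks the deposited distance matched, to 2 bp, the one measured to the nearest GENCODE coding start, and for 55 that start belonged to the same gene, so the authors used another annotation. The background was the 21883 protein-coding genes of a RefSeq table (GRCm38.p6, names only). For promoter CpG ratios and territories it was instead 22219 protein-coding genes of GENCODE vM1, matched to peaks by the deposited names. Words of 31 and 75 bases were counted over the genome on both strands and the counter was tested on simulated sequence. Every member was accounted for. Peaks within 10 kb, single-copy peaks and every peak of Fgf8, Fgf10, Fgfr1 and Fgfr2 were given with position, width and distance, and wider pathway genes were named where a peak lay within 1 kb. Some genes and sequences that these rules select are not reported here. Wnt and Bmp groups were taken by gene name after the data were seen, as were the sequence families, the heparan sulfate genes and the CpG ratio around assigned starts. The members and lists were chosen with earlier results of these data known, so no enrichment test was run. Alternatives were a minimum width of 500 bp, merging within 1000 bp, distance limits, copy number limits, other backgrounds and another gene assignment. Python 3.11.15, numpy 2.4.6, pandas 2.3.3, scipy 1.17.1 and numba 0.67.0 were used.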

Additional observations from a re-analysis of the deposited data

How the results depend on the processing

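The list joins both replicates, so leaving out a replicate was not possible and the values above carry no replicate error. No paired analysis was possible because the result comes from no test and the input shares fewer than 2 numbers with the ChIP samples. Of 79 alternative values for 12 results, 63 stayed within the tolerance, 16 moved and 0 reversed. The tolerance was 1.5 times for a count and the 95% interval of the reported value for the others, so it took in a drop from 24 to 17 members with a peak within 10 kb. With at least 2 peaks per gene, 11 members remained above the limit. They included 1 of 5 receptors (20%) and 4 of 20 ligands (20%), beside 10.6% of protein-coding genes. Within 10 kb, 5 ligands, 3 feedback genes and 2 docking and FLRT genes had a peak. The receptors stayed at 5 of 5 under every other alternative run for them. The 58 member peaks fell to 20 within 10 kb, 32 within 100 kb, 25 at single-copy sequence by 31-base words and 36 by 75-base words. The median width of 894 bp became 1202 bp within 10 kb and 1055.5 bp within 100 kb. The median distance to the TSS of 63051 bp became 290.5 bp within 10 kb, 1107 bp within 100 kb, 401 bp at single-copy sequence by 31-base words and 4544 bp by 75-base words. The excess of the members' share over the background, 22.5 percentage points, became 41.4 with all gene names, coding or not, as background. The multi-copy share of member peaks, 56.9%, became 37.9% with 75-base words. Counting any peak within 1 kb of an annotated start, chosen after seeing the data, gave 17 members in place of 15. A distance limit keeps fewer peaks and shorter distances by its construction. The cause of the other moves, the width included, was not tested.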
